A study of Mus musculus with 12 samples.

Results

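The nuclear genes of the mitochondrial respiratory chain and ATP synthase were compared between female germ cells of mouse embryos whose mothers were withdrawn from vitamin C and of embryos whose mothers were supplied with it. The genes were chosen by symbol, as every row that starts with Nduf, Uqcr, Cox followed by a digit from 4 to 8, or Atp5, or is Sdha, Sdhb, Sdhc, Sdhd, Cyc1 or Cycs. This gave 85 genes of the 12516 in the table. By the known roles of their products, 35 encode complex I subunits, 4 complex II, 9 complex III, 1 cytochrome c, 13 complex IV and 15 ATP synthase. The other 8 symbols share a prefix only: Ndufaf1, Ndufaf2, Ndufaf3, Ndufaf4 and Atp5sl (now Dmac2) are linked to complex I assembly, Cox7a2l to supercomplexes, Atp5s (now Dmac2l) to ATP synthase, and Cox4nb (now Emc8) belongs to a membrane complex of the endoplasmic reticulum. Ndufa4, first assigned to complex I, was counted with complex IV.

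Withdrawn embryos (n = 6) were Gulo-/- on a C57BL/6 background, were taken at embryonic day 13.5, and came from mothers denied vitamin C over the first weeks of gestation. Supplied embryos (n = 6) had the same genotype, background, sex and age, and came from mothers kept at physiological vitamin C. Mice without Gulo, the enzyme of the final step towards vitamin C, depend on the diet for it, in both groups alike. Each library was made from Oct4+ germ cells sorted from 1 embryo, and embryos able to make vitamin C are not analysed here.

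The respiratory chain passes electrons from NADH and succinate to oxygen through complexes I to IV of the inner mitochondrial membrane, and ATP synthase uses the proton gradient so built to make ATP. Complex I oxidises NADH, complex II succinate, complex III hands electrons to cytochrome c, and complex IV reduces oxygen. Complexes I, III, IV and ATP synthase combine subunits encoded in the nucleus with subunits encoded in mitochondrial DNA, and the mitochondrial genes, of which 13 were listed, are not analysed here. In mouse primordial germ cells respiration is known to gain in weight relative to glycolysis as the cells develop.

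In withdrawn embryos 14 of the 85 genes were higher, which is 16.47% of them, against 6.22% of all 12432 genes tested. None was lower in the limma fit, against 7.75% of all genes tested, with 1 gene, Ndufv2, lower at an unadjusted p below 0.05 and 0 by an exact permutation test per gene. The calls lay mostly in complex IV (5 of 13), ATP synthase (4 of 15) and complex III (2 of 9), while complex I had 2 of 35 and complex II 0 of 4. Changes were small: the called genes rose between 1.12-fold and 1.29-fold. The median log2 fold change of the 85 genes was 0.10, that of all genes tested was -0.01, and 67 of the 85 were above 0, against 46.61% of all genes tested. Groups did not overlap for 5 of the 85 genes, 5.88%, with every withdrawn embryo above every supplied one; this held for 2.15% of all genes tested. The exact test called the same 558 genes of the table whose groups did not overlap in either direction. After adjustment a gene with any overlap could not pass it, so its counts, here and below, restate the overlap and are no separate support. All values are deposited normalized log2 values; fold changes are withdrawn minus supplied with their standard error (SE), and adjusted p values are limma's with Benjamini-Hochberg adjustment over all genes tested.

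**Figure D1:**
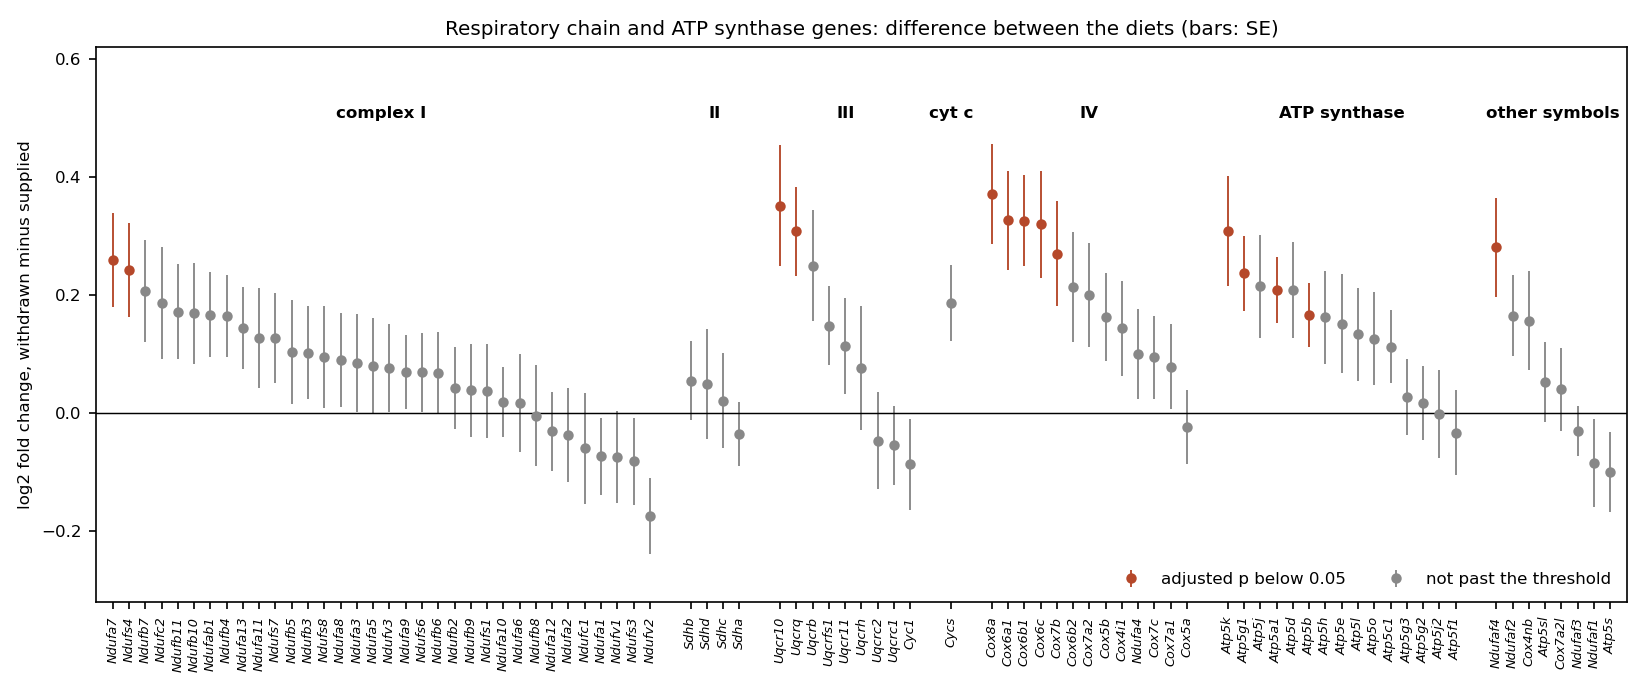
Log2 fold change of the genes, all but 1 of the 85 (points, withdrawn minus supplied, vertical axis) with its SE (bars), ordered within each complex from high to low; red marks an adjusted p below 0.05. The 14 red points are all above 0, and 5 of them lie in complex IV.

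Promoters of respiratory genes often carry sites for nuclear respiratory factor 1 (NRF1), a regulator of many of them. Windows of 300 bases, from 250 before to 50 after the annotated start (RefSeq, GRCm38.p6), were found for 72 of the 85 genes and searched on both strands. The NRF1 letters GCGCA and GCGC with 1 base of any kind between them occurred in 16 windows (22.2%), against 11% of 9941 windows of genes in the table and 4.78% of all 27025 windows. The letters CCGGAAG, which ETS factors such as GABP bind, occurred in 16 windows (22.2%), against 18.9% and 9.12%. The letters AAGATGGCG of YY1 occurred in 7 windows (9.72%), against 3.32% and 1.49%. A match is a description of the letters and not of binding. The stretches printed here are the 250 bases before the start of 3 genes, read 5′ to 3′ on the gene's strand, with NRF1 and ETS letters in capitals. They set Cox6a1 and Atp5k, both higher in withdrawn embryos, beside Sdha, which was not called and has 3 NRF1 matches. Cox6a1 (minus strand, chr5:115348959-115349208) has 2 NRF1 matches and 1 ETS match, Atp5k (minus strand, chr5:108434400-108434649) has 1 NRF1 match, and Sdha lies on the minus strand at chr13:74350241-74350490.
Cox6a1: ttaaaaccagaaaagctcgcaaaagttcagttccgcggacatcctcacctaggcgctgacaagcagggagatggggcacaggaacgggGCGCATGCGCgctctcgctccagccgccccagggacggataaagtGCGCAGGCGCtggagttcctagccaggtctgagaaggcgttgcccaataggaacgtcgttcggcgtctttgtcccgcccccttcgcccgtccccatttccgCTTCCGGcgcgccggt
Atp5k: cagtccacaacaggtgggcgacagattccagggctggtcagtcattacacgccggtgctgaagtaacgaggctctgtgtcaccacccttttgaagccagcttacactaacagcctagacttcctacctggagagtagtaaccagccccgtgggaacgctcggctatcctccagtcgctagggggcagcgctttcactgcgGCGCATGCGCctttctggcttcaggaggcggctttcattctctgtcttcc
Sdha: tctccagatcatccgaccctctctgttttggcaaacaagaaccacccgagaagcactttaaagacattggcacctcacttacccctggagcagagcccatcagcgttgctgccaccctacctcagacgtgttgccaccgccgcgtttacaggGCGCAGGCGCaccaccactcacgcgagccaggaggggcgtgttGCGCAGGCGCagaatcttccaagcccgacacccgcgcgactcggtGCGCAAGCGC

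All 85 genes passed the filter on low values. Correlations between libraries across genes were between 0.986 and 0.999, and the files give no sequencing depth. Of 10 germ cell markers, 9 were above the median gene, and limma called 8 of the 10: 5 higher in withdrawn embryos, among them Pou5f1 (log2 fold change 0.45) and Tfap2c (0.39), and 3 lower, Mael (-0.77), Dazl (-0.43) and Ddx4 (-0.34). The list means, over members that moved both ways, were 10.85 to 10.98 in withdrawn and 10.82 to 10.98 in supplied embryos. The part of these shifts in the result was not tested. Of 27 markers of supporting, mesenchymal, endothelial and macrophage cells, 25 were below the median gene and 25 had a negative fold change; erythroid markers are not analysed here. Their mean was 5.42 ± 0.041 in withdrawn and 5.52 ± 0.093 in supplied embryos (SD, n = 6 each), ranging from 5.38 to 5.49 in withdrawn and from 5.41 to 5.65 in supplied embryos. The markers Kitl of supporting cells and Fbln1 of mesenchyme were lower in withdrawn embryos. Only Fbln1 (mean 9.34 in withdrawn, 9.63 in supplied embryos) and Pecam1 (11.38 and 11.18) were above the median gene, and both entered the mean. Which cells these signals came from was not tested. With a random effect for embryos of the same number and diet, Kitl, Fbln1, Tfap2c, Dazl and Ddx4 lost the call (adjusted p = 0.0813, 0.0743, 0.0699, 0.0556 and 0.0863, limma). So did Prdm1 and Dnd1 (adjusted p = 0.0816 and 0.0912, limma). Of the called germ cell markers, only Mael, Pou5f1 and Dppa3 kept it. With the mean of the 27 markers as a covariate, 0 of the 85 genes were called by limma (16 higher at an unadjusted p below 0.05), and 1 gene in the whole table was. The median fold change of the 85 genes was then 0.10, and their median SE was 0.10 in place of 0.08. Their part in the result was not tested in any other way. In sorted cells measured in bulk, fewer cells of a type and less RNA per cell cannot be told apart.

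Among complex I genes, 2 of 35 were higher in withdrawn embryos, both accessory subunits: Ndufa7, and Ndufs4, whose loss in mice causes a Leigh-like encephalopathy. That is 5.71%, below the 6.22% of all genes tested, and at an unadjusted p below 0.05 there were 7 higher and 1 lower. Ndufa7 lay at 8.62, 8.78 and 9.05 (lowest, median, highest) in withdrawn embryos, against 8.32, 8.54 and 8.68 in supplied embryos. One withdrawn embryo fell within the supplied range and the other 5 lay above it. Ndufa7 rose by 0.26 ± 0.08 (log2, SE; adjusted p = 0.0336, limma). Ndufs4 lay at 11.19, 11.30 and 11.56 in withdrawn embryos, against 10.95, 11.09 and 11.33 in supplied embryos. The groups overlapped, with 3 withdrawn embryos above all supplied ones. Ndufs4 rose by 0.24 ± 0.08 (adjusted p = 0.0450, limma). Each of these calls was lost in 7 of the 12 fits that left out 1 embryo, with fold changes of 0.21 to 0.29 for Ndufa7 and 0.20 to 0.29 for Ndufs4. Both lost it without withdrawn embryo 5 or 6 or without supplied embryo 1, 2 or 3; Ndufa7 also without withdrawn embryo 3 or supplied embryo 4, and Ndufs4 also without withdrawn embryo 4 or supplied embryo 5.

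The 7 core subunits of complex I, which hold the flavin and the iron-sulfur clusters, gave a mean difference of 0.00054 in log2 value, and 0 of 7 were called by limma or by the exact test, with 1 lower at an unadjusted p below 0.05. Ndufv2, an iron-sulfur protein of the NADH-oxidising module, lay at 10.50, 10.57 and 10.68 in withdrawn embryos, against 10.65, 10.72 and 10.94 in supplied embryos. All 6 withdrawn embryos lay below the supplied mean, and the ranges overlapped slightly. Its difference of -0.17 ± 0.06 missed the threshold (adjusted p = 0.0706, limma, 95% interval -0.31 to -0.04). Ndufv2 was called under 7 of 29 other settings, among them the fit without supplied embryo 4 (-0.19) and the looser threshold of 0.1. Its sign was negative in all 29. That was largely fixed in advance, as Ndufv2 had the lowest fold change of the 85 genes and several settings leave it as it is. Ndufv1, which binds NADH and flavin, differed by -0.07 ± 0.08. Ndufs1, the largest iron-sulfur subunit, differed by 0.04 ± 0.08 with an interval of -0.13 to 0.20. Ndufs3 (-0.08), Ndufs7 (0.13) and Ndufs8 (0.09) also missed the threshold. The 28 accessory subunits had a median of 0.08, and 23 were above 0; the 26 not called lay between -0.07 (Ndufa1) and 0.21 (Ndufb7). Ndufb7, an accessory subunit of the membrane arm, differed by 0.21 ± 0.09 (adjusted p = 0.106, limma) and was called without supplied embryo 6, at 0.26.

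Complex II is the succinate dehydrogenase shared with the citric acid cycle, and all 4 of its subunits are nuclear. Its 4 genes gave the smallest mean difference of the 5 complexes, 0.02, with 0 called by limma, 0 at an unadjusted p below 0.05 and 0 by the exact test. Sdha, the flavoprotein whose promoter is shown above, lay at 12.05, 12.10 and 12.19 in withdrawn embryos, against 12.11, 12.13 and 12.21 in supplied embryos. The ranges overlapped almost fully, and the difference was -0.04 ± 0.05 with a 95% interval of -0.15 to 0.08. Sdhb, the iron-sulfur subunit, differed by 0.05 ± 0.07 (interval -0.08 to 0.19). The membrane anchors Sdhc and Sdhd differed by 0.02 ± 0.08 (interval -0.15 to 0.19) and 0.05 ± 0.09 (interval -0.14 to 0.24).

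In complex III, 2 of 9 genes were higher in withdrawn embryos, both small accessory subunits, and 4 were higher at an unadjusted p below 0.05. Uqcrq lay at 9.96, 10.12 and 10.39 in withdrawn embryos, against 9.77, 9.85 and 9.97 in supplied embryos. One withdrawn embryo fell just below the highest supplied one, and the other 5 lay above all of them. Uqcrq rose by 0.31 ± 0.07 (adjusted p = 0.0110, limma) and was called in each of the 12 fits that left out 1 embryo. Uqcr10 lay at 9.36, 9.56 and 9.90 in withdrawn embryos, against 9.06, 9.16 and 9.53 in supplied embryos. Withdrawn embryos 4, 5 and 6 lay above every supplied embryo, while withdrawn embryos 1, 2 and 3 lay within the supplied range. Uqcr10 rose by 0.35 ± 0.10 (adjusted p = 0.0264, limma), and lost the call without withdrawn embryo 4 (0.33), 5 (0.29) or 6 (0.31) or supplied embryo 1 (0.31) or 5 (0.33).

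The electron-carrying and core subunits of complex III did not pass the test, nor did the small subunits Uqcr11 (0.11 ± 0.08) and Uqcrh (0.08 ± 0.10, but -0.0067 without withdrawn embryo 5). Cyc1, cytochrome c1, differed by -0.09 ± 0.08 (interval -0.25 to 0.07). The core proteins Uqcrc1 and Uqcrc2 differed by -0.05 ± 0.07 and -0.05 ± 0.08. Uqcrfs1, the Rieske iron-sulfur protein, differed by 0.15 ± 0.07 (adjusted p = 0.139, limma). Uqcrb, a small subunit near the ubiquinone site, differed by 0.25 ± 0.09 (adjusted p = 0.0764, limma) and passed without withdrawn embryo 1 (0.31) or withdrawn embryo 3 (0.29). Cycs, the cytochrome c that shuttles electrons from complex III to complex IV, lay at 9.14, 9.27 and 9.32 in withdrawn embryos, against 8.96, 9.03 and 9.18 in supplied embryos. All but 1 of the withdrawn embryos lay above every supplied embryo. Its difference of 0.19 ± 0.06 missed the threshold (adjusted p = 0.0549, limma) and passed it without withdrawn embryo 1 (0.21) or supplied embryo 4 (0.21).

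Complex IV, cytochrome c oxidase, had the largest share of called genes of the 5 complexes: 5 of 13 were higher in withdrawn embryos, and 12 of 13 fold changes were above 0. All 5 encode small accessory subunits that surround the catalytic core. Cox8a lay at 9.93, 10.13 and 10.36 in withdrawn embryos, against 9.61, 9.75 and 9.98 in supplied embryos. Withdrawn embryos 3 to 6 lay above every supplied embryo, and withdrawn embryos 1 and 2 just below the highest. Cox8a rose by 0.37 ± 0.09 (adjusted p = 0.0082, limma; 95% interval 0.19 to 0.55), the largest change among the 85 genes. Cox6b1, a subunit on the side of the intermembrane space, lay at 9.164, 9.270 and 9.518 in withdrawn embryos, against 8.793, 8.996 and 9.162 in supplied embryos. Cox6a1, the widely expressed isoform of its subunit, lay at 9.86, 9.99 and 10.44 in withdrawn embryos, against 9.65, 9.74 and 9.82 in supplied embryos. For both genes every withdrawn embryo lay above every supplied one, though for Cox6b1 by a narrow margin. Each rose by 0.33 ± 0.08, with adjusted p = 0.0093 for Cox6b1 and 0.0146 for Cox6a1 (limma). Cox8a, Cox6b1 and Cox6a1 were called in each of the 12 fits that left out 1 embryo.

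Cox6c lay at 11.51, 11.59 and 12.06 in withdrawn embryos, against 11.10, 11.40 and 11.58 in supplied embryos. The ranges overlapped, with 3 withdrawn embryos above all supplied ones. Cox6c rose by 0.32 ± 0.09 (adjusted p = 0.0230, limma) and lost the call without withdrawn embryo 6 (0.29) or supplied embryo 1 (0.27). Cox7b lay at 10.85, 11.03 and 11.39 in withdrawn embryos, against 10.63, 10.75 and 11.06 in supplied embryos. Only 2 withdrawn embryos lay above all supplied ones. Cox7b rose by 0.27 ± 0.09 (adjusted p = 0.0434, limma), and lost the call without withdrawn embryo 1, 4, 5 or 6 or supplied embryo 1, 2, 3 or 5, with fold changes of 0.20 to 0.33 over the 12 fits. The larger nuclear subunits next to the core did not pass: Cox4i1 differed by 0.14 ± 0.08, Cox5a by -0.02 ± 0.06 and Cox5b by 0.16 ± 0.07. Ndufa4 differed by 0.10 ± 0.08, Cox7a2 by 0.20 ± 0.09 and Cox7c by 0.09 ± 0.07. Cox6c and Cox7b each have 2 annotated pseudogene copies of at least 95% identity over at least 200 bases, so that some of their reads may have been split or shared.

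ATP synthase had 4 called genes of 15, all higher in withdrawn embryos, and 13 of 15 fold changes were above 0. They cover the catalytic head, the ring and the membrane part of the enzyme. Atp5b, the catalytic beta subunit, lay at 14.24, 14.30 and 14.44 in withdrawn embryos, against 14.11, 14.14 and 14.20 in supplied embryos. Atp5a1, the alpha subunit that alternates with beta in the head, lay at 12.81, 12.90 and 13.003 in withdrawn embryos, against 12.62, 12.69 and 12.75 in supplied embryos. Atp5g1, one of the genes for the c subunit of the rotating ring, lay at 8.997, 9.09 and 9.21 in withdrawn embryos, against 8.78, 8.86 and 8.95 in supplied embryos. For these genes every withdrawn embryo lay above every supplied one. Atp5b rose by 0.17 ± 0.05 (adjusted p = 0.0411, limma), Atp5a1 by 0.21 ± 0.06 (adjusted p = 0.0180) and Atp5g1 by 0.24 ± 0.06 (adjusted p = 0.0178). Atp5a1 was called in each of the 12 fits without 1 embryo. Atp5g1 lost the call without supplied embryo 5 (0.22). Atp5b lost it without withdrawn embryo 4, 5 or 6 or supplied embryo 1, 2, 3, 5 or 6, with fold changes of 0.14 to 0.18.

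Atp5k, subunit e of the membrane part, lay at 8.55, 8.82 and 9.18 in withdrawn embryos, against 8.35, 8.48 and 8.65 in supplied embryos. The lowest withdrawn embryos fell within the supplied range and 4 lay above it. Atp5k rose by 0.31 ± 0.09 (adjusted p = 0.0302, limma), and lost the call without withdrawn embryo 4, 5 or 6 or supplied embryo 1, 2 or 5, with fold changes of 0.23 to 0.36 over the 12 fits. Atp5c1, the gamma subunit of the central stalk, differed by 0.11 ± 0.06 and did not pass. Atp5d, the delta subunit of the same stalk, and Atp5j, coupling factor 6, each differed by 0.21 (SE 0.08 and 0.09; adjusted p = 0.0884 and 0.0984, limma). Atp5e, Atp5h, Atp5l and Atp5o (the oligomycin sensitivity protein of the outer stalk) lay between 0.13 and 0.16, and none of these passed. Atp5f1 and Atp5j2 differed by -0.03 and -0.0011 and changed sign between settings, with ranges of -0.08 to 0.07 and -0.05 to 0.04. The other c subunit genes Atp5g2 and Atp5g3, which encode the same mature protein as Atp5g1, differed by 0.02 ± 0.06 and 0.03 ± 0.06. Atp5g1 and Atp5k each have 1 pseudogene copy by the same measure, and exons of Atp5a1 overlap those of Haus1 on the opposite strand, which cannot be told apart without strand. Among the symbols outside the complexes, 1 of 8 was called: Ndufaf4, a complex I assembly factor, lay at 9.31, 9.51 and 9.81 in withdrawn embryos, against 9.0, 9.27 and 9.42 in supplied embryos. Its ranges overlapped, with 4 withdrawn embryos above all supplied ones. Ndufaf4 rose by 0.28 ± 0.08 (adjusted p = 0.0288, limma) and lost the call without withdrawn embryo 5 (0.22) or 6 (0.26) or supplied embryo 5 (0.23) or 6 (0.28). The assembly factor Ndufaf2 differed by 0.17 ± 0.07 (adjusted p = 0.104, limma), Cox4nb by 0.16 ± 0.08 and Atp5s by -0.10 ± 0.07.

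**Figure D2:**
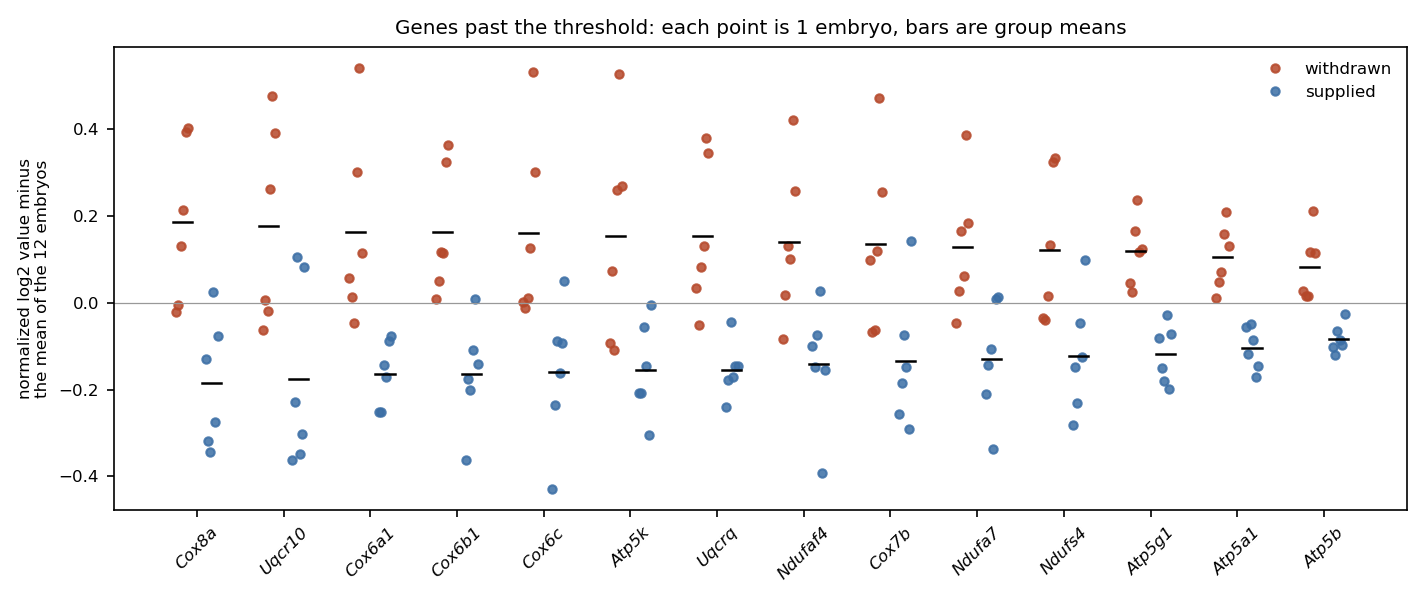
Normalized log2 value of each embryo minus the mean of the 12 embryos (vertical axis) for the 14 called genes, with withdrawn embryos left in red, supplied embryos right in blue and bars at group means. For Cox6a1, Cox6b1, Atp5g1, Atp5a1 and Atp5b every withdrawn point lies above every supplied point; for the other 9 genes the groups overlap.

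The embryos did not contribute evenly. In complexes I, III, IV and ATP synthase, the mean over the genes was higher in withdrawn embryos 4, 5 and 6 than in withdrawn embryos 1, 2 and 3, which lay near the mean of all embryos, and supplied embryo 1 was the lowest of all. In complex IV, deviations from the mean of the 12 embryos were -0.006, -0.017, 0.008, 0.142, 0.273 and 0.197 in withdrawn embryos 1 to 6, against -0.242, -0.142, -0.063, -0.12, -0.085 and 0.056 in supplied embryos 1 to 6. Supplied embryo 6 thus lay above withdrawn embryos 1, 2 and 3. In complex II supplied embryos 5 and 6 had the highest means of all 12, 0.16 and 0.10. The difference between group means was 0.20 for complex IV, 0.14 for ATP synthase, 0.12 for complex III, 0.07 for complex I and 0.02 for complex II.

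**Figure D3:**
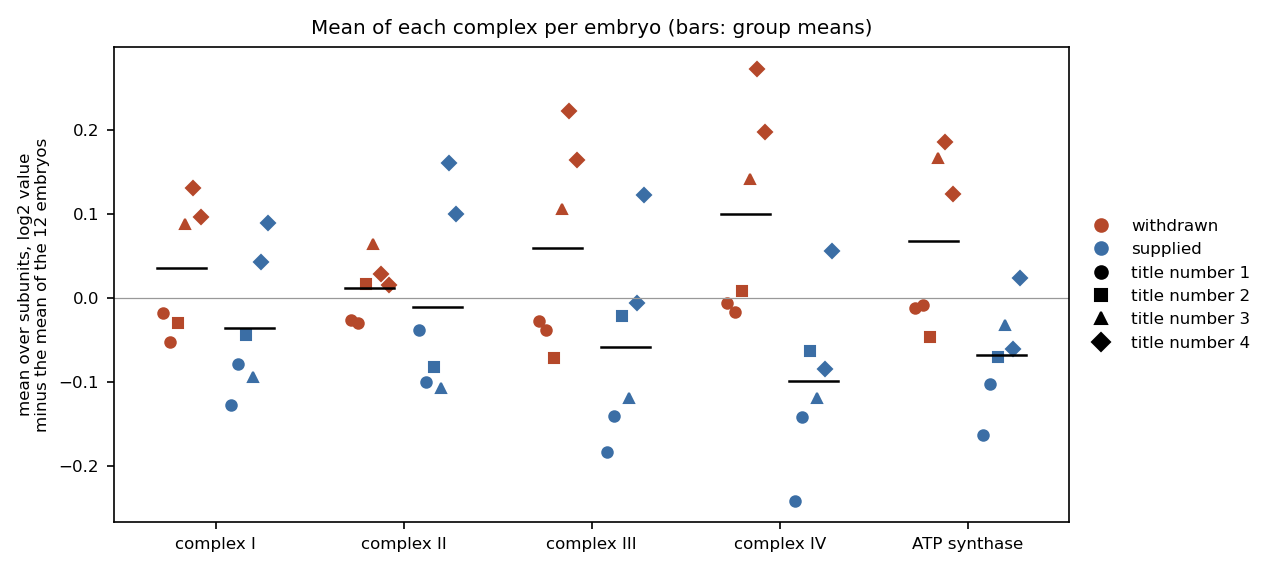
Mean over the genes of each complex in each embryo, as log2 value minus the mean of the 12 embryos (vertical axis), with withdrawn embryos left in red, supplied embryos right in blue, bars at group means and symbols for the number in the sample title. The group difference is 0.20 for complex IV and 0.02 for complex II, and the embryos titled 4 are high in both groups of complex I.

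Sample titles carry a number from 1 to 4 in both groups, and the labels do not say what it marks. The number 4 belongs to withdrawn embryos 5 and 6 and supplied embryos 5 and 6, the number 1 to embryos 1 and 2 of each group. Within the numbers 1 to 4, the called genes differed on average by 0.20, 0.16, 0.29 and 0.42, and all 85 genes by 0.10, 0.03, 0.19 and 0.11. The called genes were selected by their difference over these same embryos, which favours positive values within each number. Complex IV and ATP synthase were higher in withdrawn embryos within each number. Complex III was lower in withdrawn embryos within number 2 (-0.05), and complex II within number 4 (-0.11). Without all embryos of number 4, 0 of the 85 genes were called by limma, against 0.0724% higher among all genes tested, while 23 were higher and 1 lower at an unadjusted p below 0.05. The median fold change of the 14 genes was then 0.22 in place of 0.29. Without number 1, 5 were called (2.61% of all genes tested). With a random effect for embryos of the same number and diet, 7 remained called (3.18% of all genes tested): Uqcrq, Cox6a1, Cox6b1, Cox6c, Cox8a, Atp5a1 and Atp5g1.

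Levels of the genes were compared per kilobase of transcript, as the mean log2 value minus log2 of the transcript length. All 77 subunit genes were above the median gene by this measure, and 83 of the 85 were. The measure lifts short transcripts, and the subunit genes had a median length of 732 bases, against 2820 for all genes tested. Their median percentile was 94.13 per kilobase and 75.73 on the deposited values. On the deposited values some lay below the median gene of 8.131, the lowest at 7.135. The highest levels were those of Atp5b at 13.29, Cox6c at 12.52 and Cox4i1 at 12.28, and the lowest those of Ndufaf3 at 4.601, Atp5s at 5.54 and Atp5sl at 7.21. Some subunits exist in tissue isoforms. Cox6b2, known as the testis isoform of Cox6b1, stood at 10.63 per kilobase, against 9.85 for Cox6b1, and was the higher of the pair in 12 of 12 embryos, by 0.47 to 1.14. Its difference between diets was 0.21 ± 0.09 (adjusted p = 0.124, limma), and it passed without withdrawn embryo 1 (0.28). Cox7a1, the heart and muscle isoform, stood at 9.29 per kilobase, below the common isoform Cox7a2 at 10.48 in 12 of 12 embryos. Among the c subunit genes Atp5g3 was highest at 10.74, then Atp5g1 at 9.72 and Atp5g2 at 8.57, in that order against Atp5g3 in every embryo. Cycs stood at 7.52, below every gene of the complexes it links. By the measure given for Cox6c, Cycs has 3 pseudogene copies and Atp5g2 has 2, so that some of their reads may have been split or shared. The transcript length used for Cycs was 3123 bases. The part of copies and length in these levels was not tested. The median SD within groups was 0.140 over the 85 genes and 0.115 over all genes tested.

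**Figure D4:**
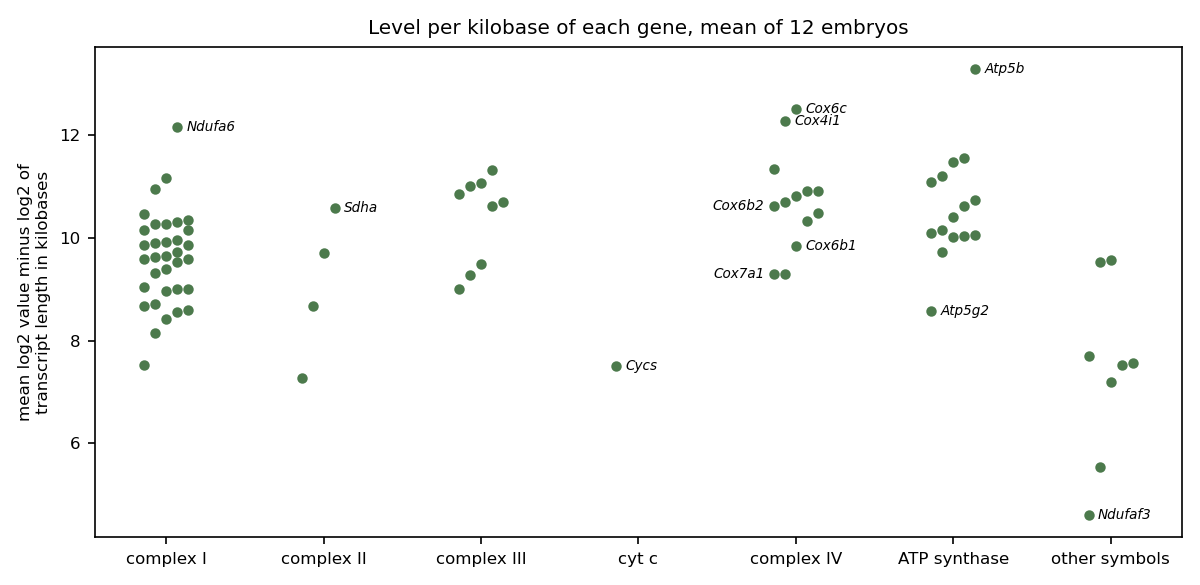
Level per kilobase of the genes, all but 1 of the 85 (points; mean over the 12 embryos of the log2 value minus log2 of transcript length in kilobases, vertical axis) by complex. Atp5b is highest at 13.29, and Cox6b2 at 10.63 lies above Cox6b1 at 9.85.

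Many of the called genes are short. The median fold change of the 85 genes fell from shorter to longer transcripts, while the share called did not follow length in that way. Of the 37 genes under 700 bases 9 were called, with a median fold change of 0.13, against 6.61% called higher and a median of 0.01 among 484 other genes of that length. From 700 bases to under 1500 bases 1 of 29 was called, with a median of 0.09, against 8.71% and 0.03 among 1803 others. At 1500 bases or more 4 of 19 were called, with a median of 0.04, against 5.70% and -0.02 among 9930 others. With the trend of each library on length and GC content removed, an alternative chosen after seeing the data, 12 genes were higher, against 7.84% of all genes, and Ndufv2 was lower. The median of the 85 genes was then 0.05. Genes of mitochondrial ribosomal proteins, set beside them as another family of the organelle, had 8 of 76 higher (10.53%) and a median of 0.08. Genes of cytosolic ribosomal proteins had 8 of 79 higher (10.13%), 76 above 0 and a median of 0.14. For both families these are values of the reported fit, in which 6.22% of all genes tested were higher.

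**Figure D5:**
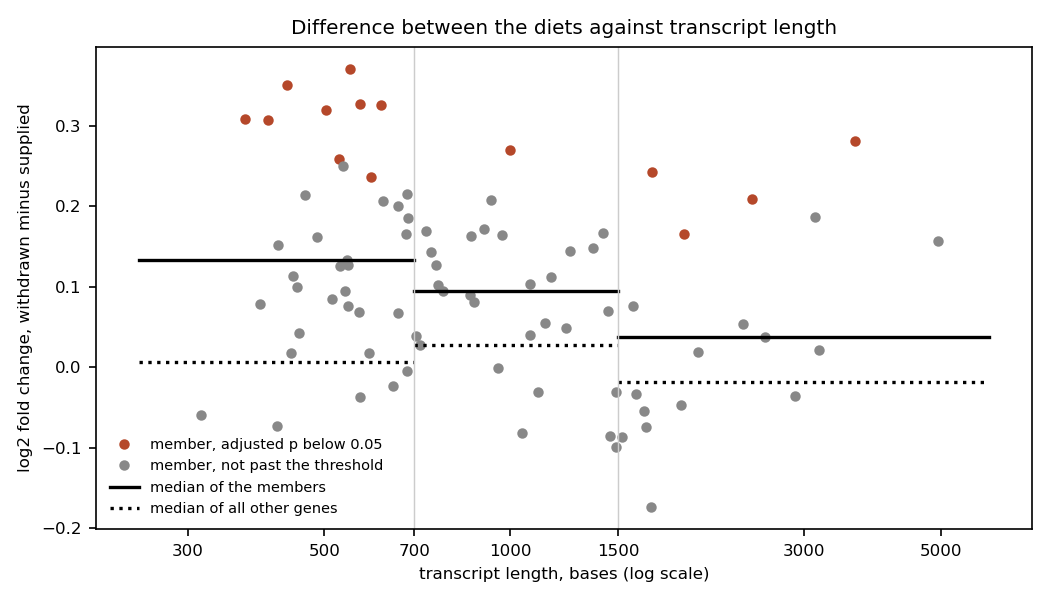
Log2 fold change, withdrawn minus supplied (vertical axis), against transcript length in bases (horizontal, log scale) for all but 1 of the 85 genes, with medians of the genes (solid) and of all other genes (dotted) in 3 length classes. The medians of the 85 genes are 0.13, 0.09 and 0.04 from short to long, and each lies above that of the other genes.

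Other genes of the pathway were counted in 7 lists. Carriers and import had 4 of 16 genes higher, against 6.22% of all genes tested, and 0 lower, with 14 above 0 and a median of 0.17. The adenine nucleotide translocators Slc25a4 and Slc25a5, which exchange ATP for ADP across the inner membrane, rose by 0.43 ± 0.09 (adjusted p = 0.0048, limma) and 0.40 ± 0.09 (adjusted p = 0.0068). Slc25a4 lay at 11.97, 12.22 and 12.57 in withdrawn embryos, against 11.61, 11.79 and 12.08 in supplied embryos, with some overlap. Tomm40, the pore of the outer membrane, rose by 0.41 ± 0.12 (adjusted p = 0.0241, limma), and Timm44, of the import motor, by 0.24 ± 0.08 (adjusted p = 0.0341). Tomm40 lost the call without withdrawn embryo 5 (0.31) or supplied embryo 5 (0.36) or 6 (0.36). Timm44 lost it without withdrawn embryo 4, 5 or 6 (0.235, 0.21 and 0.21) or supplied embryo 1, 2, 3 or 5 (0.22, 0.22, 0.25 and 0.22). With the random effect for embryos of the same number and diet, Tomm40 (adjusted p = 0.0665, limma) and Timm44 (0.0745) also lost the call. That left 2 of 16, against 3.18% of all genes tested.

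Of 18 genes of the citric acid cycle and pyruvate dehydrogenase, 1 was higher, near the 6.22% of all genes tested. It was Idh3b, a subunit of NAD-dependent isocitrate dehydrogenase, at 0.32 ± 0.08 (adjusted p = 0.0169, limma), with every withdrawn embryo above every supplied one. Of 14 genes of mitochondrial DNA maintenance and transcription, 1 was higher, also near that share. It was Mterfd1 (now Mterf3), at 0.27 ± 0.08 (adjusted p = 0.0204, limma). Idh3b and Mterfd1 each lost the call without supplied embryo 5, at 0.28 and 0.26. Tfam, which packages and transcribes mitochondrial DNA, differed by 0.15 ± 0.07 and did not pass. Of 10 nuclear regulators, 1 was higher: Esrrb, an orphan nuclear receptor also known for its place in pluripotency, averaged 11.11 ± 0.096 in withdrawn embryos and 10.61 ± 0.28 in supplied embryos (SD, n = 6 each). The groups did not overlap, and Esrrb rose by 0.50 ± 0.10 (adjusted p = 0.0031, limma). Nrf1, whose letters are marked in the promoters above, differed by -0.09 ± 0.07 and did not pass.

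The 3 lists of assembly factors, which hold no Nduf symbols, gave no calls. That of complex II and ATP synthase also covers regulation. For complexes III and IV, 0 of 25 passed in limma, with a median of -0.01, 1 higher and 2 lower at an unadjusted p below 0.05 and 0 by the exact test. For complex II and ATP synthase, 0 of 9 passed, with a median of 0.07 and 1 higher and 1 lower without adjustment. For complex I without the Nduf prefix, 0 of 7 passed, with a median of -0.00096 and 1 lower without adjustment; the exact test called 0 in both lists. Cox17, the copper chaperone of complex IV, differed by 0.20 ± 0.07 (adjusted p = 0.0736, limma), while Cox10, which makes its heme, differed by -0.22 ± 0.08 (adjusted p = 0.0748). Without all embryos of number 4, none of the 7 called genes of these lists passed, with adjusted p values of 0.053 for Esrrb to 0.44 for Tomm40 (limma).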

How the data were processed

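The authors deposited 1 table of normalized log2 expression values, 12516 genes by 12 embryos. Their processing notes name DESeq2 1.10.1, TopHat2 2.0.13, FastQC and Trim Galore 0.4.0, and the build mm9, without role or order. The counter and annotation, and which log2 transformation was used, are not stated in those notes as used here. Whole reads could not be recovered, so no count test, counting interval or depth is given, and changes of low genes may be understated. Genes with a mean of at least log2 of 10 (3.32) were kept, 12432 in all. Withdrawn and supplied embryos were compared with limma 3.58.1 in R 4.3.3 (moderated variances with a trend, two-sided, Benjamini-Hochberg over the genes kept, called at an adjusted p below 0.05). P values treat embryos as independent, and the series text calls them biological replicates. The consensus correlation between embryos of the same number and diet was 0.267, so these p values may be too small. Counts with the random effect and with such embryos averaged are given with the alternatives.

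The 85 genes, the lists and the markers were chosen with earlier results of these data known. Named genes are all called ones, up to 4 of each complex with the smallest p, and catalytic or core and isoform genes. Called list members and the 3 highest and 3 lowest levels per kilobase are also named. The rest of complexes III, IV and ATP synthase is given for completeness. Others named (Tfam, Nrf1, Cox17, Cox10, Kitl, Fbln1, Pecam1, Ndufa1 and the germ cell markers) were chosen after their values were seen. Transcript lengths are of the shortest principal coding transcript (GENCODE, GRCm38), and older symbols were matched through RefSeq synonyms. Whether title numbers pair the samples is not settled: correlations of same-numbered deviations were 0.27, -0.10, 0.18 and -0.17. Withdrawn embryos of numbers 1 and 3 correlated best with supplied embryos of their own number, and those of numbers 2 and 4 with another. The result of 1 gene of the 85 is not reported here; counts, means and medians include it. The fit was run on simulated data with independent embryos and with changes larger than those of the called genes. That run cannot check errors from related embryos or power at the changes seen here. On the data themselves, 29 alternatives were run.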

Additional observations from a re-analysis of the deposited data

Results flagged for a closer look

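In 5 of 106 groups of 6 values, 1 embryo stood apart from the others by a gap of 0.641 to 0.727 of the group's range, past Dixon's 95% critical value; chance gives such a gap in about 1 of 20 groups. Sdhc was 8.729 in withdrawn embryo 1, the lowest of its group and below the next at 8.947. Uqcrc2 was 9.922 in withdrawn embryo 5, below the next at 10.21. Atp5sl was 8.682 in withdrawn embryo 4, above the next at 8.483. Uqcrfs1 was 9.557 in supplied embryo 6, above the next at 9.396. Cox4nb was 10.21 in supplied embryo 4, above the next at 9.951. None of these 5 genes passed the test between the diets in the limma fit, at adjusted p values of 0.139 to 0.89. The cause of these gaps was not tested.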

How the results depend on the processing

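All 14 called genes kept a positive fold change under each of the 29 alternatives. This was largely fixed in advance. The genes were called for this difference in the same embryos, and several alternatives leave the fold change as it is. The number of the 85 genes called higher was 9 with quantile normalization, 5 with the exact test, 7 with the random effect, 0 with embryos of the same number and diet averaged (23 higher unadjusted), 0 with the marker covariate, and 5, 9, 9 and 0 without title numbers 1, 2, 3 and 4. Without 1 embryo it was between 6 (without withdrawn embryo 6) and 16 (without withdrawn embryo 1), and 7 to 10 without withdrawn embryo 4 or 5 or supplied embryo 1, 2, 3 or 5. Genes called lower numbered 1, Ndufv2, with quantile normalization, no variance trend, array weights, the length and GC trend removed or an adjusted p below 0.1, and between 0 and 1 (without supplied embryo 4) without 1 embryo. With the title number as a replicate block, 19 were higher and 1 lower, and 2062 genes of the table were called; not every sample correlated best with its own number, and the pairing rests on a number alone. Of all genes tested, 1737 were called, 558 by the exact test, 886 with the random effect, 298 averaged, 1 with the covariate, 729 without title number 1, 49 without number 4, 2723 at an adjusted p below 0.1, and 808 to 2315 without 1 embryo. Median centring moved the share of higher among called genes to 53.2% and the length and GC removal to 53.8%, against 44.5% as reported.

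Signs turned for genes that did not pass (Atp5f1, Atp5j2 and Uqcrh are given in the results). Without title number 2, Sdhc was -0.053, Ndufs1 -0.013 and Cox7a2l -0.017; without number 3, Sdhd was -0.042, Ndufs8 -0.0037, Cox5a 0.0089 and Atp5g2 -0.0036; without number 4, Uqcrc2 was 0.11, and averaged 0.0094. With the covariate, Sdhc was -0.038, Cox7a2l -0.00082 and Atp5g2 -0.0050. With length and GC removed, Cox7a2l was -0.011, Atp5g2 -0.016 and Atp5g3 -0.027. With quantile normalization, Atp5g3 was -0.0085 and Ndufaf3 0.0032. Without 1 embryo, values ran from -0.0206 to 0.114 for Sdhd, -0.0337 to 0.0682 for Sdhc, -0.0161 to 0.0769 for Ndufs1, -0.0906 to 0.0098 for Uqcrc2, -0.0455 to 0.0071 for Cox5a, -0.0055 to 0.0716 for Cox7a2l, -0.0046 to 0.0479 for Atp5g2 and -0.0024 to 0.0543 for Atp5g3. The cause was not tested.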
